A study of Mus musculus with 6 samples.

Results

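Translation initiation factors were examined in RNA sequencing libraries of fetal testes of the mouse, dissected at E13.5 (embryonic day, counted from mating). The genes are the rows of the deposited table whose symbol starts with Eif and a digit, without the X- and Y-linked pair Eif2s3x and Eif2s3y, which gave 54 of the 16862 genes listed. The libraries fall into 3 labelled L/H-Pgds-/-, a genotype named for the lipocalin-type and the haematopoietic prostaglandin D synthase (called knockout after this label, numbered 5, 7 and 8), and 3 labelled wild type (numbered 1, 3 and 4). Ptgds, which encodes the lipocalin-type enzyme, was nearly absent from the knockout libraries, whereas Hpgds, which encodes the other, was not, as given at the end. All were C57BL/6, and since the labels speak of 6 separate littermates, 1 library is treated here as 1 embryo. The study asked what the loss of prostaglandin D2 synthesis does in the fetal testis. The symbol rule does not hold to the name of the group throughout. By gene identifier, 50 of the 54 symbols are those of RefSeq today, while Eif2c1, Eif2c2, Eif2c3 and Eif2c4 are older symbols of the Argonautes Ago1 to Ago4, which bind microRNAs and are not initiation factors. They are kept among the 54 and described apart.

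Initiation is the step at which the small ribosomal subunit, carrying the initiator tRNA, is brought to the cap of an mRNA and scans to the start codon. The factor eIF2 delivers the tRNA, eIF2B recharges eIF2 with GTP, and 4 kinases (Eif2ak1 to Eif2ak4) slow that cycle under stress. The cap is bound by eIF4E on the scaffold eIF4G with the helicase eIF4A, small eIF4E-binding proteins block this assembly, and the large complex eIF3 holds the pieces on the small subunit. In the fetal testis, as in other tissues, most of these genes are active in all cell types, and the libraries are of whole gonads, so fewer cells of a type and less RNA per cell cannot be told apart.

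Values are upper-quartile normalised pseudo-counts, which are adjusted fractional values and not reads, and the depth is unknown. Changes are log2 changes of value + 1, knockout over wild type, tested with limma over all 15116 genes that passed the filter. All 54 genes passed it. A gene is said to have risen or fallen where its p, adjusted over all genes tested, was under 0.05.

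Of the 54 genes, 15 rose and 19 fell in the knockout, and 20 did not pass the test. That is 27.8% higher and 35.2% lower, against 17.3% higher and 17.0% lower among all genes tested, of which 34.3% changed. Most Eif genes have high values, and genes with high values pass the test more often. Among genes with a mean value of at least 1000, an alternative background chosen after the data were seen, 47.3% changed (19.6% higher, 27.7% lower), while of the 44 Eif genes at that level 8 rose and 19 fell. The median log2 change of the 54 was -0.12, and that of all genes tested was -0.03. The split depends on the scaling, and so does that of all genes. After scaling to equal totals 19 of the 54 were higher and 14 lower, against 23.2% higher and 11.2% lower of all genes. After quantile normalisation 17 were higher and 13 lower, against 17.6% higher and 16.0% lower of all genes. In 44 of the 54 genes the knockout and wild-type libraries did not overlap, with the knockout higher in 20 and lower in 24, while 50.3% of all genes tested did not overlap. The summed value of the 54 genes made up between 1.18% and 1.23% of a knockout library and between 1.20% and 1.26% of a wild-type library, and these ranges overlap.

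**Figure D1:**
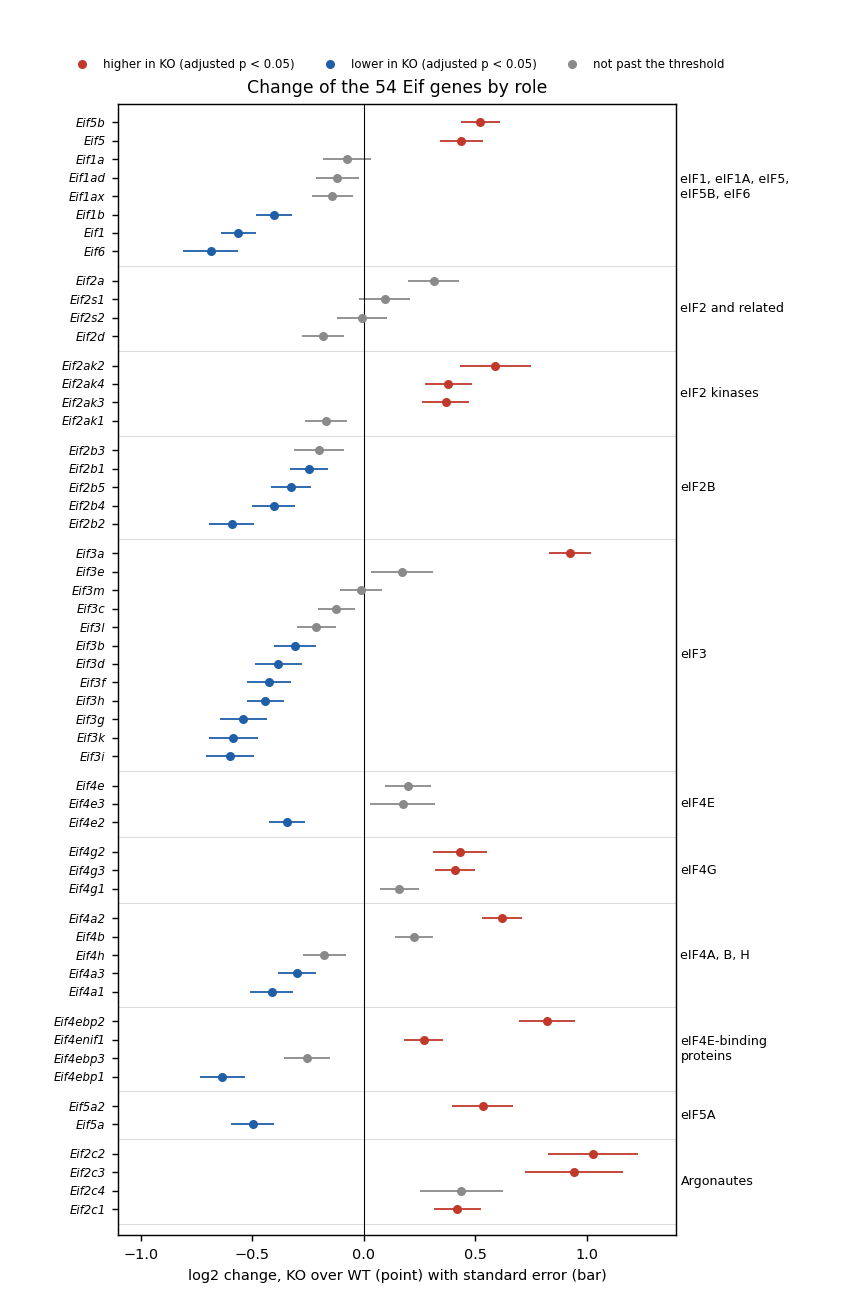
Log2 change, knockout over wild type, of the 54 Eif genes in 11 role groups, with points for the change from 3 knockout and 3 wild-type libraries and bars for its standard error. Most role groups hold genes on both sides of 0, and Eif3a stands far to the right of the other eIF3 genes.

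The direction of change followed the length of the transcript. Both length and GC content were read from the longest coding transcript of each gene in GENCODE vM21. Median length was 5298 nt among the 15 genes that rose, 1605 nt among the 19 that fell and 3091 nt among the 20 that did not pass, and median GC content was 44.5%, 53.8% and 47.1%. Of 14 Eif genes of under 1793 nt, a range that holds the shortest 20% of all genes, 11 fell and 0 rose, against 46.5% lower and 0.657% higher of all genes in that range. Of the 12 of over 5113 nt, the longest 20%, 9 rose and 0 fell, against 45.5% higher and 1.70% lower of all genes there. Across the 54 genes, Pearson's r of the log2 change with log2 length was 0.79, and with GC content -0.55. Over all 14449 tested genes with both properties, r was 0.55 and -0.47. These correlations are across genes of the same 6 libraries, and genes are not independent replicates. With the trend of each library's values on length and GC content removed, 4 of the 54 were higher and 11 lower, against 6.07% higher and 6.64% lower of all genes in that fit (12.7% in all).

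**Figure D2:**
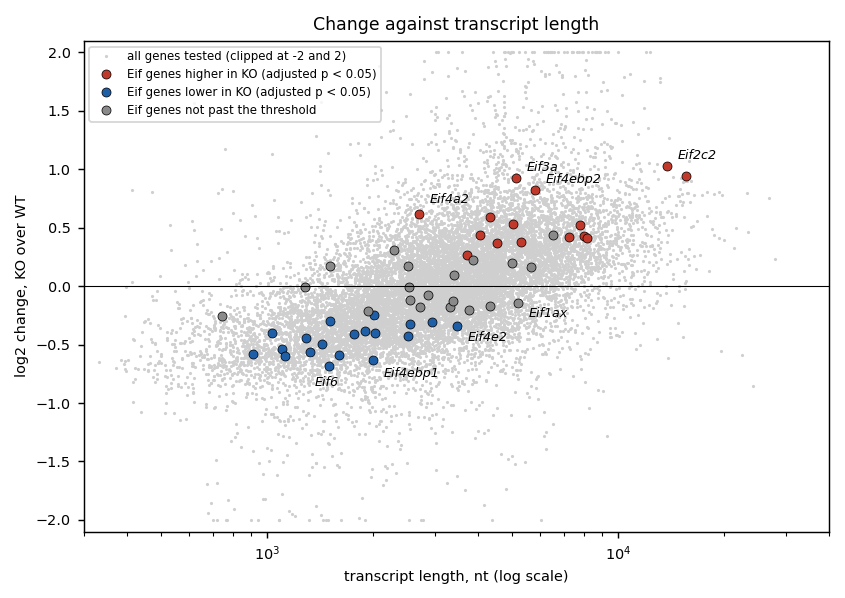
Log2 change, knockout over wild type, against transcript length in nt on a log scale, with all tested genes as grey dots and the 54 Eif genes as circles coloured by the outcome of the test. Short Eif genes lie low and long ones high, along the slope of the grey cloud, with Eif3a, Eif4ebp2 and Eif4a2 near its upper part and Eif1ax and Eif4e2 near its lower part.

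After that removal, the 4 higher genes were Eif3a, Eif4ebp2, Eif4a2 and the Argonaute Eif2c2, all of which had risen before it. The 11 lower genes included 5 that had fallen before, Eif4ebp1, Eif4e2, Eif3f, Eif4a1 and Eif1. The other 6 had not passed the test before: Eif1ax, Eif1a, Eif2s1, Eif4e, Eif2b3 and Eif2ak1. Both Eif2s1 and Eif4e turned from a positive to a negative log2 change. Across all the settings tried, 6 genes passed the test in every one: Eif3a, Eif4a2, Eif4ebp2, Eif2c2, Eif4a1 and Eif4ebp1. The matching share of all genes was not computed, so this count does not set the Eif genes apart.

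**Figure D3:**
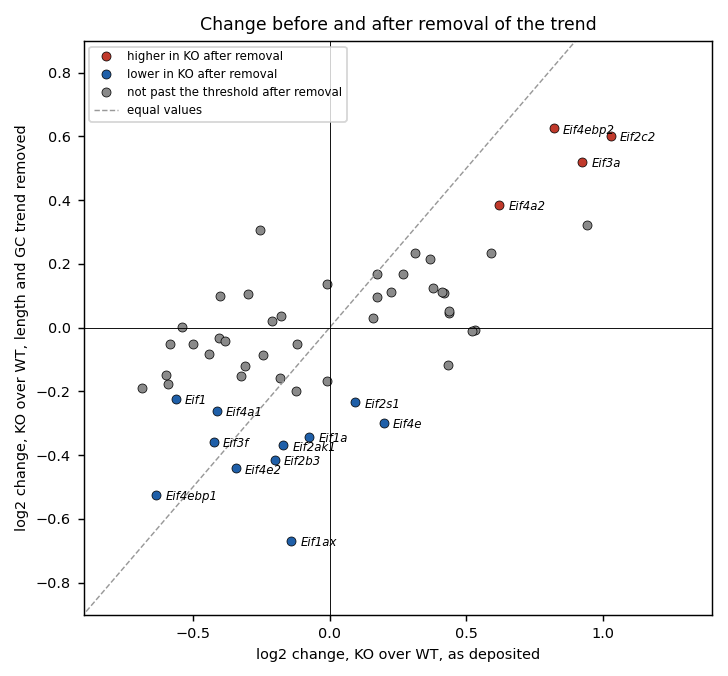
Log2 change of the 54 Eif genes as deposited (horizontal) and with the length and GC trend removed (vertical), coloured by the test after removal. Points between the dashed line of equal values and the horizontal zero line moved towards 0. The 4 genes higher after removal sit at the right and Eif1ax at the bottom, at -0.67.

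The eIF3 complex gave the steepest rise of any initiation factor beside falls in most of its other subunits. Eif3a, the largest subunit and the one on which the complex is built, stood at 8222, 8656 and 8166 in the knockout libraries, against 3986, 4851 and 4395 in the wild-type libraries. Every knockout library lay above every wild-type library. The deposited table places Eif3a (NCBI gene 13669) on chromosome 19 of mm9, from 60837019 to 60866596. Its mean was 8348 ± 268 in knockout and 4411 ± 433 in wild type (SD, n = 3 each), a 1.90-fold rise (log2 change 0.92, SE 0.09, adjusted p = 0.000783). Removal of the trend left a log2 change of 0.52 (adjusted p = 0.00358).

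Of the other 11 eIF3 genes, 7 fell, 0 rose and 4 did not pass, with a median log2 change of -0.38. Of all genes tested, 17.0% were lower and 17.3% higher. The median length of the 11 was 1506 nt, and of all genes of under 1793 nt 46.5% were lower. Eif3i, a small propeller-shaped subunit, held 7198, 7030 and 6864 in the knockout libraries, against 10425, 9389 and 12338 in the wild-type libraries. Eif3k, a small subunit of the PCI family, held 9508, 8673 and 9012 in the knockout libraries, against 13622, 11864 and 15487 in the wild-type libraries. For both genes the highest knockout library lay below the lowest wild-type library. Eif3i fell 1.51-fold (log2 change -0.60, SE 0.11, adjusted p = 0.00309) and Eif3k 1.50-fold (log2 change -0.58, SE 0.11, adjusted p = 0.00358). Their log2 changes were -0.15 and -0.05 with the trend removed (adjusted p = 0.223 and 0.699). Eif3g, which contacts the mRNA entry channel, had a log2 change of -0.54 as deposited and 0.0027 after removal. Eif3h, Eif3f, Eif3d and Eif3b also fell, with log2 changes from -0.44 to -0.31, and of these Eif3f alone remained past the threshold after removal (log2 -0.36, adjusted p = 0.0224). Eif3f was not past it after quantile normalisation (log2 -0.17, adjusted p = 0.165), where 4 of the 11 were lower. After scaling to equal totals 5 of the 11 were lower, and without wild-type library 4 also 5.

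Subunits that did not pass were Eif3l (log2 -0.21), Eif3c (-0.12), Eif3m (-0.01) and Eif3e (0.17). Eif3e, another PCI-family subunit, varied most of them within the knockout relative to its mean, at 6028, 7666 and 4921 in the knockout libraries, against 5375, 5252 and 5633 in the wild-type libraries. Knockout library 7 was above all wild-type libraries and knockout library 8 below them. After quantile normalisation the sign of Eif3c turned to a log2 change of 0.06, and that of Eif3m turned under 7 settings. RefSeq lists pseudogenes derived from Eif3e, Eif1, Eif4a, Eif4a3 and Eif5a, and the sources used here do not say how reads shared with them were counted.

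**Figure D4:**
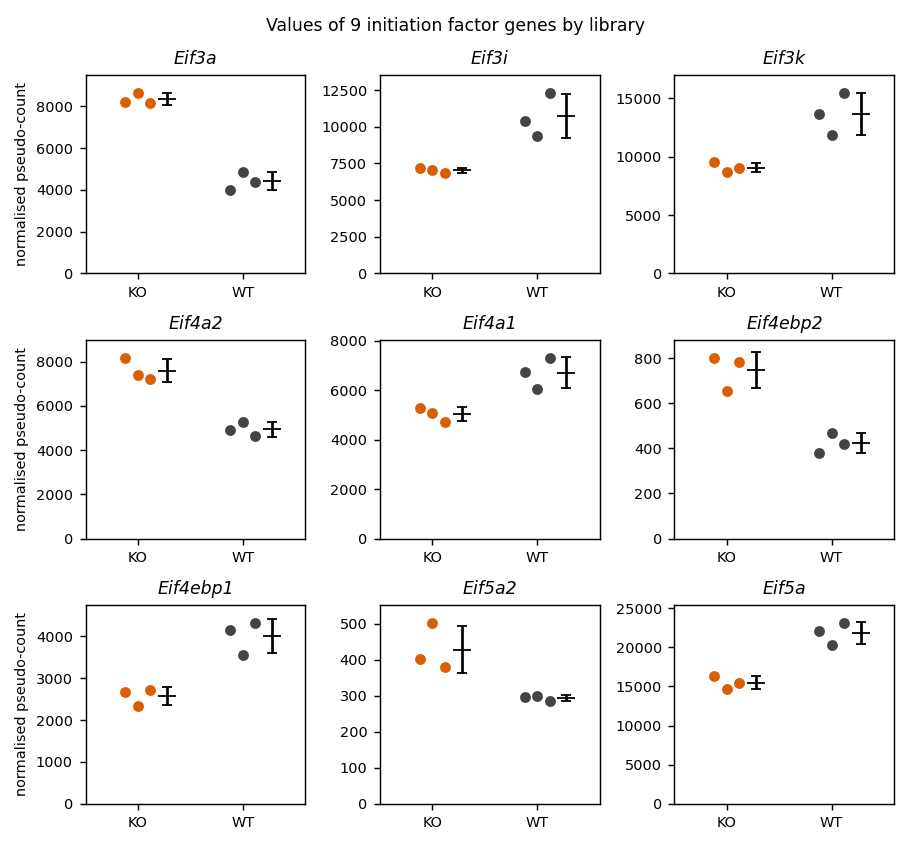
Normalised pseudo-counts of 9 initiation factor genes in the 3 knockout and 3 wild-type libraries (dots), with the mean and SD beside them. Eif3a, Eif4a2, Eif4ebp2 and Eif5a2 are higher in every knockout library, and Eif3i, Eif3k, Eif4a1, Eif4ebp1 and Eif5a lower in every one.

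The closely related helicases Eif4a1 and Eif4a2, which unwind mRNA ahead of the ribosome, moved in opposite directions. Eif4a2 stood at 8173, 7413 and 7198 in the knockout libraries, against 4913, 5279 and 4620 in the wild-type libraries. Eif4a1 stood at 5274, 5103 and 4712 in the knockout libraries, against 6747, 6059 and 7319 in the wild-type libraries. Neither gene overlapped between the genotypes. Eif4a2 rose 1.54-fold (log2 change 0.62, SE 0.09, adjusted p = 0.00181), and Eif4a1 fell 1.33-fold (log2 change -0.41, SE 0.10, adjusted p = 0.00878). After removal of the trend the log2 changes were 0.38 and -0.26 (adjusted p = 0.0331 and 0.0327). On mm9 the deposited table places Eif4a1 (NCBI gene 13681) on chromosome 11 from 69480438 to 69485925 and Eif4a2 (NCBI gene 13682) on chromosome 16 from 23107552 to 23114205. Small nucleolar RNA rows inside the span of Eif4a2 held at most 12.3 on average.

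Eif4a3, a relative that serves in the exon junction complex, stood at 4013, 4103 and 3921 in the knockout libraries, against 4947, 4608 and 5275 in the wild-type libraries. It fell (log2 change -0.30, SE 0.08, adjusted p = 0.0199), but its log2 change was 0.11 with the trend removed, and it did not pass without knockout library 5 or 8 or wild-type library 1 or 4 (adjusted p from 0.0522 to 0.0907). The helper proteins of eIF4A, Eif4b and Eif4h, had log2 changes of 0.23 and -0.18 and did not pass (adjusted p = 0.067 and 0.184). Eif4b was higher after scaling to equal totals (log2 0.33, adjusted p = 0.0168).

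Promoter windows of both helicase genes are shown because the paralogues moved apart, and those of Eif3a and Eif3g because these subunits of one complex did. Each window is from RefSeq on GRCm38.p6 and holds 300 bases around an annotated start, most of them upstream of it, written on the strand of the gene. Coordinates are chr11:69672374-69672673 (minus strand) for Eif4a1, chr16:23107218-23107517 (plus strand) for Eif4a2, chr19:60790644-60790943 (minus strand) for Eif3a and chr9:20898541-20898840 (minus strand) for Eif3g. Capitals mark matches on either strand to CACGTG (an E-box), CCGGAAG (an ETS motif), GGGCGG (a GC box) or TATAAA.
Eif4a1: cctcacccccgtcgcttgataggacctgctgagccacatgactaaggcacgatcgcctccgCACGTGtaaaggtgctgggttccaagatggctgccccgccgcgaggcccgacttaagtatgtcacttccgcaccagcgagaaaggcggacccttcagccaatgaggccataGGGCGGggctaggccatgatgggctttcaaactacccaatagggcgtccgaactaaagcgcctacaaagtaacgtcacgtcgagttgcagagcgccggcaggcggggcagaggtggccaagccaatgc
Eif4a2: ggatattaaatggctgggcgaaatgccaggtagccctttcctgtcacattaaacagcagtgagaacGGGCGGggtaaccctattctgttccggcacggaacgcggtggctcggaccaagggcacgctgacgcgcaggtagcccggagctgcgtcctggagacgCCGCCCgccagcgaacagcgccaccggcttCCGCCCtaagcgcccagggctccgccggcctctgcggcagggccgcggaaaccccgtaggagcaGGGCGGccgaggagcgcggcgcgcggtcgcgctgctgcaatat
Eif3a: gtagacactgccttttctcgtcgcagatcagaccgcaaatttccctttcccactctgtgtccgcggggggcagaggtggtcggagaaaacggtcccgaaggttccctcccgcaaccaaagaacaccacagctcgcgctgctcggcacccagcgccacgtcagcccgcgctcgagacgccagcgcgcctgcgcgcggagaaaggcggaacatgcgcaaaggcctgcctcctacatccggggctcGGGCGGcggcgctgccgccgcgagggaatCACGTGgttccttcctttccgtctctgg
Eif3g: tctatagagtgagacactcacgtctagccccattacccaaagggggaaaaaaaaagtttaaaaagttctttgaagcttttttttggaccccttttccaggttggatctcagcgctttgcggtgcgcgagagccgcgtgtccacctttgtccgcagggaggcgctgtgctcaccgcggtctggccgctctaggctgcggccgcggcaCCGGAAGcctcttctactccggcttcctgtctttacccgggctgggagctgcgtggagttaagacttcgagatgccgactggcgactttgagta
The Eif4a1 window held 1 E-box and 1 GC box, and that of Eif4a2 held 4 GC boxes. Eif3a had 1 E-box and 1 GC box, and Eif3g 1 ETS motif. Of the Eif genes, 43 had a promoter in the RefSeq table, some with several windows. The E-box was in 10 of these 43 (23.3%), against 11.3% of 11897 tested genes with a promoter, and the ETS motif in 17 (39.5%), against 18.0%. For the GC box the counts were 33 of 43 (76.7%), against 66.7%, and for TATAAA 3 of 43 (6.98%), against 9.15%. By direction of change, the E-box was in 2 of 13 genes that rose and 5 of 15 that fell, and the ETS motif in 4 of 13 and 7 of 15. A match is only a description of these letters.

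Genes of the eIF4E-binding proteins also moved apart. Eif4ebp2 and Eif4ebp1 encode 4E-BP2 and 4E-BP1, which hold eIF4E away from eIF4G until mTOR phosphorylates them. Eif4ebp2 stood at 802, 654 and 784 in the knockout libraries, against 379, 467 and 420.2 in the wild-type libraries. Eif4ebp1 stood at 2662, 2343 and 2728 in the knockout libraries, against 4147, 3551 and 4322 in the wild-type libraries. The genotypes did not overlap for either gene. Eif4ebp2 rose 1.77-fold (log2 change 0.82, SE 0.13, adjusted p = 0.00195), and Eif4ebp1 fell 1.55-fold (log2 change -0.63, SE 0.10, adjusted p = 0.00222). Both calls remained with the trend removed, at log2 0.63 (adjusted p = 0.00797) and -0.52 (adjusted p = 0.00743). The third member, Eif4ebp3, had a log2 change of -0.26 (adjusted p = 0.0801), which turned to 0.31 after removal (adjusted p = 0.0653). Eif4enif1, which carries eIF4E into the nucleus and to P-bodies, stood at 2668, 3083 and 2718 in the knockout libraries, against 2368, 2423 and 2227 in the wild-type libraries. It rose (log2 change 0.27, SE 0.09, adjusted p = 0.0385), but did not pass when any 1 of the 6 libraries was left out (adjusted p from 0.0524 to 0.136).

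Of the cap-binding proteins, Eif4e2 fell and Eif4e and Eif4e3 did not pass. Eif4e2, also called 4EHP, binds the cap without recruiting eIF4G and represses translation. It stood at 3741, 3346 and 3644 in the knockout libraries, against 4526, 4471 and 4594 in the wild-type libraries. The wild-type libraries lay close together and above every knockout library (log2 change -0.34, SE 0.08, adjusted p = 0.00969). Its log2 change was larger with the trend removed, -0.44 (adjusted p = 0.00555), and it was -0.21 after quantile normalisation (adjusted p = 0.0681). Eif4e itself stood at 2256, 2570 and 2031 in the knockout libraries, against 1903, 1914 and 2142 in the wild-type libraries, with some overlap between genotypes. Its log2 change was 0.20 (adjusted p = 0.164), then 0.30 after scaling to equal totals (adjusted p = 0.0449) and -0.30 with the trend removed (adjusted p = 0.032), so its direction rests on the processing.

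The scaffold genes were higher as deposited, Eif4g2 and Eif4g3 past the threshold and Eif4g1 not. Of all genes tested 17.3% rose, and of those of over 5113 nt, a range that holds these 3, 45.5% did. Eif4g2 encodes DAP5, which lacks the site for eIF4E and serves cap-independent initiation, and it had the highest value of all 54 genes. It held 30938, 37193 and 28584 in the knockout libraries, against 22041, 24590 and 24643 in the wild-type libraries. Eif4g3, a paralogue of Eif4g1 with a role in male meiosis in mice, held 3391, 3733 and 3619 in the knockout libraries, against 2725, 2913 and 2457 in the wild-type libraries. Both were higher in every knockout library. Eif4g2 rose 1.35-fold (log2 change 0.43, SE 0.12, adjusted p = 0.0201) and Eif4g3 1.33-fold (log2 change 0.41, SE 0.09, adjusted p = 0.00727). Eif4g1, the main scaffold, had a log2 change of 0.16 (adjusted p = 0.176) and was past the threshold after scaling to equal totals (log2 0.26, adjusted p = 0.0405) or quantile normalisation (0.37, 0.012). These are long transcripts, and with the trend removed the log2 changes were -0.12, 0.11 and 0.03, none past the threshold. Eif4g2 also did not pass without knockout library 5 or wild-type library 1 or 4 (adjusted p from 0.0513 to 0.0567).

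The exchange factor eIF2B had 4 of 5 subunits lower, against 17.0% of all genes tested, while eIF2 itself showed no gene past the threshold. The 4 that fell had transcripts of 1605 to 2554 nt. Of all genes of under 1793 nt, 46.5% were lower, and of those from there to 2673 nt 23.8%. Eif2b2, the beta subunit, stood at 1729, 1387 and 1633 in the knockout libraries, against 2422, 2247 and 2468 in the wild-type libraries. For Eif2b4, the delta subunit, the values were 1842, 1717 and 1898 in the knockout libraries, against 2305, 2228 and 2708 in the wild-type libraries. Eif2b5, the catalytic epsilon subunit, held 3671, 3110 and 3305 in the knockout libraries, against 4278, 3989 and 4351 in the wild-type libraries. In all 3 genes the genotypes did not overlap. Log2 changes were -0.59 for Eif2b2 (SE 0.10, adjusted p = 0.00261), -0.40 for Eif2b4 (adjusted p = 0.0105) and -0.33 for Eif2b5 (adjusted p = 0.0189). Eif2b1 fell (log2 change -0.25, adjusted p = 0.0461) and passed in 1 of the 6 fits that left out a library, and after scaling to equal totals neither it nor Eif2b5 passed. Without wild-type library 4, Eif2b2 alone was lower, as Eif2b4 (adjusted p = 0.051) and Eif2b5 (0.0759) did not pass. With the trend removed none of these 4 passed (log2 from -0.18 to -0.03), while Eif2b3, the gamma subunit, was lower (log2 -0.41, adjusted p = 0.0389).

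Of the eIF2 genes, Eif2s1 and Eif2s2 encode the alpha and beta subunits. Eif2s1 stood at 2581, 3086 and 2224 in the knockout libraries, against 2401, 2547 and 2382 in the wild-type libraries, and the genotypes overlapped (log2 0.09, adjusted p = 0.552). With the trend removed it was lower (log2 -0.23, adjusted p = 0.0416). Eif2s2 had a log2 change of -0.0082 (adjusted p = 0.963). Eif2a, a separate protein that can bind initiator tRNA and is not the eIF2 alpha subunit, stood at 2717, 3103 and 2281 in the knockout libraries, against 2040, 2203 and 2230 in the wild-type libraries. Every knockout library was higher, yet the gene did not pass (log2 change 0.31, SE 0.11, adjusted p = 0.0539). Eif2a passed in 6 of 17 alternatives, among them equal totals (adjusted p = 0.0178), quantile normalisation (0.0351) and the fit without knockout library 8 (0.0139). It did not pass with the trend removed (log2 0.24, adjusted p = 0.0723). Eif2d, which recycles ribosomal subunits, did not pass (log2 -0.18).

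Among the kinases that phosphorylate eIF2, 3 of 4 rose, against 17.3% of all genes tested. Their transcripts were 4313 to 5298 nt long. Of all genes from 3645 to 5113 nt, 25.3% were higher, and of longer ones 45.5%. Eif2ak2 (PKR, which senses double-stranded RNA) stood at 282, 227 and 211 in the knockout libraries, against 151, 163 and 160.1 in the wild-type libraries. Eif2ak4 (GCN2, which senses uncharged tRNA) held 747, 723 and 770.2 in the knockout libraries, against 591, 614 and 519 in the wild-type libraries. Values of Eif2ak3 (PERK, which senses stress of the endoplasmic reticulum) were 717, 635 and 688 in the knockout libraries, against 492, 537 and 551 in the wild-type libraries. The knockout libraries were higher throughout. Eif2ak2 rose 1.51-fold (log2 change 0.59, SE 0.16, adjusted p = 0.0165), Eif2ak4 1.30-fold (log2 0.38, adjusted p = 0.0192) and Eif2ak3 1.29-fold (log2 0.37, adjusted p = 0.022). Eif2ak1 (HRI, which senses haem and is prominent in red cell precursors) had a log2 change of -0.17 (adjusted p = 0.189). Without knockout library 5 none of the 4 passed (adjusted p from 0.065 to 0.0942 for the 3 that had risen), and without knockout library 8 Eif2ak2 alone did. Eif2ak3 also did not pass after quantile normalisation (adjusted p = 0.0504). With the trend removed the 3 had log2 changes from 0.13 to 0.23 and did not pass, and Eif2ak1 was lower (log2 -0.37, adjusted p = 0.0266).

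Factors of start codon selection and subunit joining also moved both ways. Eif1, which guards the accuracy of start codon choice, stood at 2535, 2471 and 2669 in the knockout libraries, against 3816, 3604 and 3907 in the wild-type libraries. Eif6, which keeps the large subunit from joining too early, held 3427, 2768 and 3683 in the knockout libraries, against 5193, 4722 and 5939 in the wild-type libraries. Eif5b, the GTPase that joins the subunits, held 4060, 4529 and 3911 in the knockout libraries, against 2768, 3015 and 2910 in the wild-type libraries. None of the 3 overlapped between genotypes. Eif6 had the steepest fall of all 54 genes, 1.61-fold (log2 change -0.69, SE 0.12, adjusted p = 0.00315), Eif1 fell 1.48-fold (log2 change -0.56, SE 0.08, adjusted p = 0.00179) and Eif5b rose 1.44-fold (log2 change 0.52, SE 0.09, adjusted p = 0.00254). After removal of the trend Eif1 was still lower (log2 -0.22, adjusted p = 0.0491), though not with wild-type library 1 also left out, while Eif6 (log2 -0.19, adjusted p = 0.154) and Eif5b (-0.01, 0.921) did not pass.

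Eif1b, the paralogue of Eif1, fell (log2 -0.40), and Eif5, which triggers GTP hydrolysis on eIF2, rose (log2 0.44). With the trend removed neither Eif1b (log2 0.10, adjusted p = 0.418) nor Eif5 (log2 0.05, adjusted p = 0.627) passed. The near-identical eIF1A genes Eif1a and Eif1ax and the related Eif1ad did not pass as deposited. Reads of Eif1a and Eif1ax may have been split between them or dropped, so their values are uncertain. Eif1ax stood at 2945, 3208 and 2845 in the knockout libraries, against 3377, 3033 and 3513 in the wild-type libraries, and its log2 change of -0.14 became -0.67 with the trend removed (adjusted p = 0.00386), the lowest of the 54. The log2 change of Eif1a was -0.07 as deposited and -0.34 after removal (adjusted p = 0.0112). Eif1b lies in the span listed for Cdkn2d, whose mean was 35.4 in knockout and 36.5 in wild type.

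Eif5a and Eif5a2 encode a factor that carries the modified amino acid hypusine and helps the ribosome past difficult sequences. Eif5a held 16302, 14625 and 15454 in the knockout libraries, against 22125, 20304 and 23098 in the wild-type libraries. The much less abundant Eif5a2 held 403, 502 and 379.9 in the knockout libraries, against 297, 299.8 and 284 in the wild-type libraries. Eif5a was lower and Eif5a2 higher in every knockout library. Eif5a fell 1.41-fold (log2 change -0.50, SE 0.10, adjusted p = 0.00439) and Eif5a2 rose 1.45-fold (log2 change 0.53, SE 0.14, adjusted p = 0.0135). With the trend removed their log2 changes were -0.05 and -0.0071. After quantile normalisation Eif5a did not pass (log2 -0.18, adjusted p = 0.176), and Eif5a2 did not pass without wild-type library 4 (adjusted p = 0.0517). Both enzymes that make hypusine fell as well. Dohh stood at 2702, 2248 and 2511 in the knockout libraries, against 3884, 3429 and 4244 in the wild-type libraries (log2 change -0.63, SE 0.10, adjusted p = 0.00249). Dhps stood at 1053, 938 and 978 in the knockout libraries, against 1395, 1284 and 1407 in the wild-type libraries (log2 change -0.46, SE 0.09, adjusted p = 0.00464). Their log2 changes were -0.08 and 0.02 with the trend removed, neither past the threshold.

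The 4 Argonaute genes listed under the older Eif2c symbols were higher in all knockout libraries, and 3 of them rose. Of all genes of over 5113 nt, a range that holds these 4, 45.5% rose. Eif2c2 (Ago2, the Argonaute that can cut its target) stood at 294, 436 and 533 in the knockout libraries, against 216, 199.9 and 185 in the wild-type libraries. Eif2c3 (Ago3) held 109, 117 and 81.9 in the knockout libraries, against 54.1, 56.7 and 46.8 in the wild-type libraries, and Eif2c1 (Ago1) held 1838, 1769 and 1934 in the knockout libraries, against 1187, 1489 and 1486 in the wild-type libraries. The spread within the knockout was, relative to the mean, widest for Eif2c2, whose lowest knockout library still lay above the wild-type ones. Eif2c2 rose 2.04-fold (log2 change 1.03, SE 0.20, adjusted p = 0.00439), Eif2c3 1.92-fold (log2 change 0.94, SE 0.22, adjusted p = 0.00894) and Eif2c1 1.34-fold (log2 0.42, adjusted p = 0.0129), and Eif2c4 did not pass (log2 0.44, adjusted p = 0.0905). Their transcripts are among the longest, and with the trend removed Eif2c2 alone was past the threshold (log2 0.60, adjusted p = 0.046). Without these 4 genes, 12 of 50 initiation factor genes rose and 19 fell, against 17.3% higher and 17.0% lower of all genes tested.

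Ratios between related genes in one library do not change when a library is multiplied by a factor, and 5 were formed after the values were seen, from values per kb of transcript. The log2 ratio of Eif4a2 to Eif4a1 was 0.02, -0.07 and 0.0009 in the knockout libraries and -1.07, -0.81 and -1.27 in the wild-type libraries. The helicases were therefore at nearly equal levels per kb in knockout, while in wild type Eif4a1 led. For Eif4ebp2 over Eif4ebp1 the mean log2 ratio was -3.32 ± 0.06 in knockout and -4.78 ± 0.28 in wild type (SD, n = 3 each), a difference of 1.45. Eif3a over the mean of the other eIF3 genes gave -1.50 ± 0.05 in knockout and -2.73 ± 0.21 in wild type (SD, n = 3 each), a difference of 1.24. The ratio of Eif5a2 to Eif5a was higher in knockout by 1.03, and that of Eif4e to Eif4e2 by 0.54. In all 5 the genotypes did not overlap. An exact permutation test, two-sided, gave p = 0.1 for each, the smallest that 3 against 3 libraries allow. It stays 0.1 after adjustment over the 5. Because the ratios were chosen with these values known, neither the lack of overlap nor this p is independent support for a difference. The genes in each ratio differ in length and GC content, and all 5 differences were smaller with that trend removed. The difference was then 0.04 for Eif5a2 over Eif5a and 0.14 for Eif4e over Eif4e2. It was 0.58 for Eif3a over the other eIF3 genes, 0.65 for Eif4a2 over Eif4a1 and 1.15 for Eif4ebp2 over Eif4ebp1.

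**Figure D5:**
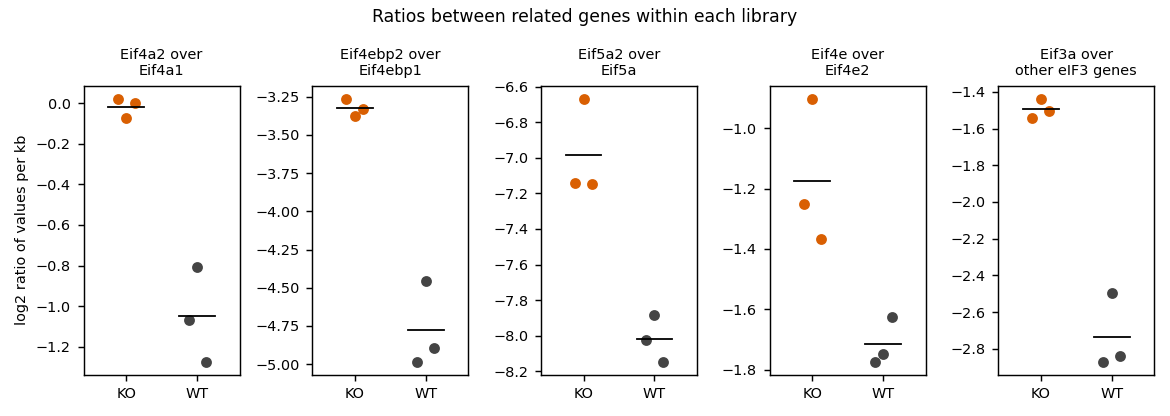
Log2 ratio of values per kb of transcript for 5 pairs or sets of related genes, in the 3 knockout and 3 wild-type libraries (dots), with bars for the means and a vertical scale for each panel that does not start at 0. In each panel every knockout library lies above every wild-type library. The values are those before removal of the length and GC trend, after which the differences were between 0.04 and 1.15.

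Levels per kb of transcript ranged widely among the 54 genes. Eif5a led in both genotypes, at 10759 per kb in knockout and 15200 in wild type, followed by Eif3k at 9972 in knockout and 15025 in wild type. Lowest was Eif2c3, at 6.59 in knockout and 3.37 in wild type. Subunits of eIF3 spread from 861 per kb for Eif3a to 15025 for Eif3k in wild type. Eif3a was the lowest eIF3 gene per kb in both genotypes, at 1629 in knockout. Levels per kb of the cap-binding proteins in knockout and wild type were 1030 and 1305 for Eif4e2, 458 and 398 for Eif4e, and 71.1 and 63.0 for Eif4e3. The length is that of the longest annotated transcript, and a level per kb is too low where a shorter one prevails.

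Other genes of translation were counted in 4 lists, to be read against the 17.3% higher and 17.0% lower of all genes tested. Of 13 tested genes of elongation and termination, 1 rose and 5 fell, with Dohh and Dhps named above. Of 18 partners of initiation, 7 rose and 2 fell. With the trend removed 1 was higher and 2 lower, against 6.07% higher and 6.64% lower of all genes in that fit. Only 1 of those that rose and 1 of those that fell, given next, kept their calls. Pabpc1, the poly(A)-binding protein that bridges to eIF4G, stood at 12090, 12206 and 11439 in the knockout libraries, against 8306, 9787 and 8598 in the wild-type libraries (log2 change 0.42, SE 0.09, adjusted p = 0.00721), and remained higher with the trend removed (log2 0.37, adjusted p = 0.0135). Mtif3, an initiation factor of mitochondria, stood at 653, 632 and 674 in the knockout libraries, against 813, 887 and 929.9 in the wild-type libraries (log2 change -0.42, SE 0.10, adjusted p = 0.00895), and was lower with the trend removed (log2 -0.56, adjusted p = 0.00632). These factors did not overlap between genotypes.

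Of 13 genes listed for their ties to phosphorylated eIF2, not all of them induced by it, 2 rose and 3 fell. That is a share near the 34.3% of all genes that changed. Atf5 stood at 860.2, 739 and 853 in the knockout libraries, against 1329, 1178 and 1269 in the wild-type libraries (log2 change -0.62, SE 0.10, adjusted p = 0.00224) and Phgdh, which starts serine synthesis, at 1764, 1330 and 1827 in the knockout libraries, against 2129, 2448 and 2991 in the wild-type libraries (log2 change -0.62, SE 0.15, adjusted p = 0.0101). Neither passed with the trend removed. The other members were named after their values were seen. Ddit3 also fell (log2 -0.54, adjusted p = 0.0105) but did not pass with the trend removed (log2 0.05, adjusted p = 0.839). Sesn2 rose (log2 0.52, adjusted p = 0.027) and was higher with the trend removed too (log2 0.68, adjusted p = 0.0147). Ppp1r15b rose (log2 0.32, adjusted p = 0.0129) and did not pass after removal (log2 0.02). Atf4, the main effector, had a log2 change of -0.19 (adjusted p = 0.104), and of 0.18 after removal (adjusted p = 0.0894). Slc7a11 did not pass as deposited (log2 -0.26, adjusted p = 0.34) but was lower after removal (log2 -0.90, adjusted p = 0.0198). Of 11 tested genes of the mTOR pathway 2 rose and 2 fell, again near the share of all genes. Rictor, a subunit of mTOR complex 2, stood at 1176, 1350 and 1112 in the knockout libraries, against 626, 639 and 603 in the wild-type libraries (log2 change 0.96, SE 0.10, adjusted p = 0.000802), and Lamtor2, which anchors mTOR complex 1 at lysosomes, at 1720, 1751 and 1807 in the knockout libraries, against 2491, 2358 and 2813 in the wild-type libraries (log2 change -0.53, SE 0.09, adjusted p = 0.0026). Rictor remained higher with the trend removed (log2 0.37, adjusted p = 0.0138) and Lamtor2 did not pass (log2 0.14).

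Across the table, 5180 of 15116 genes changed, 2609 higher and 2571 lower, and after scaling to equal totals 3507 were higher and 1687 lower. Ptgds lay between 2.94 and 15.2 in knockout and between 6560 and 8712 in wild type. Hpgds lay between 87.3 and 104 in knockout and between 45.0 and 55.0 in wild type. Hpgds passed the test as higher (log2 change 0.90, adjusted p = 0.00853), though not with the length and GC trend removed (log2 0.60, adjusted p = 0.0917). A loss of its RNA, which the label might imply, was not seen. Since the labels do not give the deleted part of that gene, its level does not check them. The Sertoli cell, fetal Leydig cell and germ cell markers checked were present in every library. Wild-type library 1 stood apart in 5 muscle genes, whose summed value was 25016, against 2771 and 3557 in the other wild-type libraries and between 1956 and 2153 in knockout. Without it 12 of the Eif genes were higher and 15 lower, while of the 14956 genes tested in that fit 2363 were higher and 2163 lower. Summed values of 5 Sertoli cell markers lay between 61129 and 94973 in knockout and between 96007 and 112815 in wild type. By the test 1 marker was higher (Inhbb) and 1 lower (Clu). The largest values were those of Amh (mean 49264 in knockout, 63893 in wild type) and Clu (18896 and 31228), so these 2 genes weigh most in the sum. Sox9 did not pass (log2 0.24). Summed values of 4 leukocyte markers (1 lower) lay between 528 and 603 in knockout and between 692 and 912 in wild type. Those of 4 genes taken as pre-granulosa markers (2 lower) lay between 2878 and 3088 in knockout and between 4561 and 5203 in wild type. The genes that were lower, Csf1r in the first list and Wnt4 and Rspo1 in the second, also had the largest values. Ptprc (log2 0.08), Foxl2 and Fst did not pass. Summed values of 4 endothelial markers (1 higher, Kdr) lay between 6190 and 6563 in knockout and between 4463 and 6145 in wild type. The summed markers of germ cells (1 of 5 higher, Ddx4), Leydig cells (1 of 5 lower, Hsd3b1), erythroid cells (0 of 3 changed) and mesonephric epithelium (0 of 4 changed) overlapped between the genotypes. Their part in the results for the Eif genes was not tested.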

How the data were processed

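RNA of male gonads (mouse, E13.5) was sequenced from 3 L/H-Pgds-/- and 3 wild-type embryos, with TruSeq RNA libraries per the labels' protocols. The authors deposited 1 table of upper-quartile normalised pseudo-counts, a signal per gene and library that is not whole reads, with sums from 21657342 to 23734462 per library. The submitters' processing notes name CASAVA 1.8.2, edgeR 2.6.2 and mm9, with no role for each tool, and neither the strand setting nor the handling of shared reads is given in the sources used here. The depth is unknown, so no count test was run.

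Genes with at least 10 in at least 3 libraries (15116 of 16862) were put on the log2(value + 1) scale and compared by limma 3.58.1 under R 4.3.3 (trended prior, two-sided, Benjamini-Hochberg adjustment over all genes tested, threshold 0.05, no covariates). A log2 change on this scale understates the change of low genes. As an alternative, the trend of each library on transcript length and GC content was removed (natural splines, 4 degrees of freedom each, GENCODE vM21, 14449 genes). Further alternatives were 2 pseudocounts (0.5 and 10), 2 filters (none and at least 50), 3 scalings, 2 limma settings and leaving out each library. Ratios used an exact permutation test. The fit was tested on simulated data. Figures used matplotlib 3.10.9 in Python 3.11.15. Sequences are from RefSeq (GRCm38.p6), and table coordinates are on mm9.

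The genes examined, the gene and marker lists and the named genes were chosen with earlier results of these data known. Values in every library were given, in each role group, for up to 3 genes past the threshold with the smallest p, and for a few others where a setting moved them, chosen after their values were seen. Labels give no batch.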

Additional observations from a re-analysis of the deposited data

How the results depend on the processing

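Of all genes tested, 5180 changed as deposited, 1836 with the trend on length and GC content removed, and 1764 with wild-type library 1 left out as well. Leaving out 1 library gave between 3098 (without wild-type library 4) and 5038. For the Eif genes, 15 rose and 19 fell as deposited, against 4 higher and 11 lower with the trend removed, and 4 higher and 8 lower without wild-type library 1 too. Leaving out 1 library gave 10 to 14 higher and 13 to 18 lower. Of the 34 Eif genes that changed, 22 passed in each of the 6 fits without a library, and 6 passed in all 17 alternatives. The matching shares of all genes were not computed, so these counts do not set the Eif genes apart. Pseudocounts of 0.5 and 10 changed no call, and the causes of the other moves were not tested. With the length and GC trend removed, signs turned, with log2 changes of 0.0995 for Eif1b, -0.23 for Eif2s1, 0.00275 for Eif3g, 0.0197 for Eif3l, 0.14 for Eif3m, 0.11 for Eif4a3, -0.30 for Eif4e, 0.31 for Eif4ebp3, -0.12 for Eif4g2, 0.0374 for Eif4h, -0.00712 for Eif5a2 and -0.0117 for Eif5b. With the trend removed and wild-type library 1 left out, signs turned, with log2 changes of 0.0402 for Eif1b, -0.23 for Eif2s1, 0.0203 for Eif3g, 0.12 for Eif3m, 0.0869 for Eif4a3, -0.31 for Eif4e, 0.33 for Eif4ebp3, -0.15 for Eif4g2, 0.0157 for Eif4h and -0.0247 for Eif5b. After median-of-ratios scaling, signs turned, with log2 changes of 0.00603 for Eif2s2 and 0.00301 for Eif3m. After scaling to equal totals, signs turned, with log2 changes of 0.0271 for Eif1a, 0.0937 for Eif2s2 and 0.0907 for Eif3m. After quantile normalisation, signs turned, with log2 changes of 0.0253 for Eif2s2, 0.0551 for Eif3c, 0.11 for Eif3m and 0.0541 for Eif4h. With 1 library left out, genes whose sign turned had log2 changes between -0.19 and 0.00479 for Eif1a, between -0.0279 and 0.21 for Eif2s1, between -0.0964 and 0.0822 for Eif2s2 and between -0.069 and 0.0673 for Eif3m. The 5 ratios between related genes were computed after removal of that trend as well, a step chosen after seeing the data, and their differences were then between 0.04 and 1.15, against 0.54 to 1.45 before. No paired analysis was run because the labels give no pairing of knockout with wild-type embryos, and litter was not modelled. The depth is unknown, and 3 libraries a group limit the precision. The median log2 change of all genes was -0.03 as deposited and 0.07 after scaling to equal totals, a shift as large as the changes of the genes near 0.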
